A study of Rattus norvegicus with 174 samples.

Results

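The 40 rat genes whose symbols begin with Nduf were described here, of 13438 genes that the array measured with a probe set of 1 gene. They were found by symbol in the platform's annotation, which gave 44 probe sets, and where a gene had more than 1 the brightest over all arrays was taken. Of the 40, 32 encode subunits of respiratory complex I, 6 encode factors that help to assemble it, and 2 carry the name without belonging to the complex. Nduf genes without a probe set of 1 gene, such as Ndufs5, Ndufa3, Ndufa10 and Ndufb4, were not analysed here. The 40 also do not cover the subunits that mitochondrial DNA encodes, whose symbols differ.

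Complex I, the NADH:ubiquinone oxidoreductase, is the largest enzyme of the respiratory chain and passes electrons from NADH to ubiquinone while it pumps protons across the inner mitochondrial membrane. Its N module oxidises NADH, its Q module reduces ubiquinone, and its proximal and distal membrane arms carry the proton channels. Tissues that work without pause, the heart above all, are rich in mitochondria and in this complex. Phosphine, a fumigant gas, is known to disturb mitochondrial respiration, for which inhibition of cytochrome c oxidase, complex IV, is the best described target.

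The rats were male Sprague-Dawley animals of 300 to 400 g, an outbred stock, whose age was not given in the sources used here. One arm breathed phosphine in a whole-body chamber for 32.2 min at 660 ppm (21252 ppm x min, or 0.91 LCt50, the exposure lethal to the median rat), and the other breathed air. All were killed under ketamine and xylazine at 1, 3, 6 or 24 h, when 5 solid tissues (brain, heart, kidney, liver, lung) were flash frozen from the same rats and blood was drawn by heart puncture. Each solid-tissue group had 4 rats, except the air groups at 6 h with 2, and all 174 arrays came from 33 rats. For blood there were 4 rats in each arm at 1 and at 3 h, then 5 exposed and 1 air at 6 h, and 2 exposed with no air rat at 24 h. Values are log2 signals, so that a difference of 1 is a 2-fold change, and differences are phosphine minus air with the SE of the limma fit. A gene was called at a Benjamini-Hochberg adjusted p (padj) under 0.05 over all 13438 genes.

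The probe sets ran from 1.74 to 14.13 with a median of 4.41. Transcripts of a foreign organ or of skeletal muscle appeared on 10 solid-tissue arrays, 8 exposed and 2 air, whose marker means exceeded the tissue's median by 4 log2 or more. These include the exposed hearts of Rat729 at 3 h (hepatocyte genes, 8.27 above), of Rat741 at 24 h (hepatocyte genes, 7.97 above) and of Rat749 at 24 h (alveolar genes, 6.29 above). They also include the lungs of exposed Rat729 and of air Rat733 at 3 h, with skeletal muscle genes 4.8 and 5.97 above. Where leaving these arrays out changed a call named in the text, that change is stated.

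In air rats 38 of the 40 genes were higher in heart than in each of brain, kidney, liver and lung, against 14.6% of all genes. By the brightest probe sets the count includes all 32 complex I subunits, of every module. With the mean of a gene's probe sets the count was 36, and the genes that lost the call are not given here. The median difference of the 40 was 2.24 for heart minus lung (4.74-fold), 1.45 for heart minus liver (2.73-fold) and 0.97 for heart minus kidney (1.96-fold). Brain minus heart was -1.56 in the median (2.95-fold). The median over all genes lay between -0.17 and 0.05 in these 4 pairs. Higher in heart were 40 of the 40 against kidney (39.6% of all genes), 40 against liver (39.7%), 39 against lung (39.8%) and 39 against brain (49.5%). The remaining gene was higher in brain, as were 34.9% of all genes.

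Ndufs1, the large iron-sulfur subunit of the N module, had a lowest, median and highest signal of 11.67, 11.83 and 11.89 in the 14 air hearts. The same values were 10.68, 10.74 and 10.87 in kidney, 9.92, 10.07 and 10.17 in brain, 9.47, 9.77 and 9.94 in liver, and 8.51, 8.69 and 9.33 in lung. Heart, kidney and lung did not overlap for this gene, and each step of the order heart, kidney, brain, liver, lung was called. This full order, with all 4 steps called, was seen in 15 genes, and the order with liver above brain in 9 more. Another 7 followed the order heart, kidney, brain or liver, lung with brain and liver not told apart by the test. Lung had the lowest mean of the 5 tissues for 38 genes.

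Within the N module the heart to lung difference ran from that of Ndufs4 (1.22 ± 0.04, 2.33-fold, limma padj = 5.74e-33), an accessory subunit, to that of Ndufv3 (3.19 ± 0.05, 9.14-fold, padj = 5.67e-49), an accessory subunit of the flavoprotein part. Ndufs1 differed by 3.06 ± 0.05 (8.36-fold) and Ndufa12 by 3.02 ± 0.06 (8.09-fold). Ndufv3 also had the widest gap between brain and heart, -2.67 ± 0.05 (6.37-fold), and between brain and kidney, -1.64 ± 0.05 (3.12-fold). Its other probe set was not compared between tissues here, so these tissue differences hold only for the probe set chosen. In the phosphine comparisons, a separate matter, that other set had the opposite sign in 11 of 23.

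Of the Q module, Ndufa5 had the largest heart minus kidney difference of all members (1.71 ± 0.05, 3.27-fold) and the largest heart minus liver difference (2.26 ± 0.05, 4.78-fold). Ndufs3, a core subunit of this module, had the largest kidney minus lung difference (2.21 ± 0.04, 4.62-fold) and the largest kidney minus liver difference (1.06 ± 0.04, 2.08-fold). Ndufs8, which carries iron-sulfur clusters, followed in kidney minus lung at 2.10 ± 0.05 (4.28-fold) after Ndufv3 at 2.16 ± 0.05 (4.47-fold). In the proximal membrane arm Ndufa8 departed from the common order, with brain above kidney by 0.59 ± 0.04 (1.5-fold) and above lung by 1.55 ± 0.04 (2.92-fold). Ndufa11 did not differ between kidney and liver beyond its error (0.07 ± 0.04, padj = 0.138). For Ndufa1, of the same arm, lung was above liver by a small margin (liver minus lung -0.10 ± 0.04, padj = 0.007).

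Of the 6 assembly factors 5 were higher in heart than in each of the other 4 solid tissues. Ndufaf1, which acts in building the membrane arm, was higher in liver than in lung by 2.19 ± 0.08 (4.56-fold) and lower in kidney than in liver by a log2 difference of -0.91 ± 0.08 (1.88-fold), the only member called lower in kidney than in liver, where 37.4% of all genes were. Ndufaf5, known in human cells as a hydroxylase of the Ndufs7 protein, was highest in brain, where its signal was 7.14 ± 0.10 (SD, n = 14) against 6.73 ± 0.09 in heart. The brain minus heart difference was 0.42 ± 0.05 (1.34-fold, padj = 2.6e-10), and no other member was called higher in brain than in heart.

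The 2 members outside the complex differed from each other. Ndufa4, now known as a subunit of complex IV, followed the common order, from 12.23 ± 0.07 in heart to 10.29 ± 0.12 in lung (SD, n = 14). Ndufa4l2, its relative that low oxygen induces in cells of other species, had 5.97 ± 0.29 in lung, its highest, then 5.42 ± 0.46 in heart, 4.19 ± 0.26 in kidney, 4.01 ± 0.45 in liver and 3.79 ± 0.22 in brain. Its lung level exceeded heart by 1.56-fold (heart minus lung -0.64 ± 0.13, padj = 2.31e-05) and was above brain (brain minus lung -2.23 ± 0.13), where its mean lay below the median of all probe sets, 4.41, so that no fold is given. Neither kidney and liver (padj = 0.157) nor liver and brain (padj = 0.221) were told apart for this gene, while kidney was above brain (brain minus kidney -0.38 ± 0.13, padj = 0.00875).

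Blood was compared over 1, 3 and 6 h, with 9 air samples. Of the 40 genes 38 were higher in heart than in blood, where 46.8% of all genes were, with a median of 2.99 (7.93-fold). Ndufs1 was low and variable in blood, 5.91 ± 0.69 (SD, n = 9), while Ndufa12 reached 10.70 ± 0.37, above its lung level of 8.76 ± 0.23. The 75th percentile of all genes was 6.12 to 6.89 on blood arrays and at least 7.47 on arrays of solid tissues, and whether all tissues were normalized together was not given in the sources used here, so that differences from blood depend on this more than the others.

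**Figure D1:**
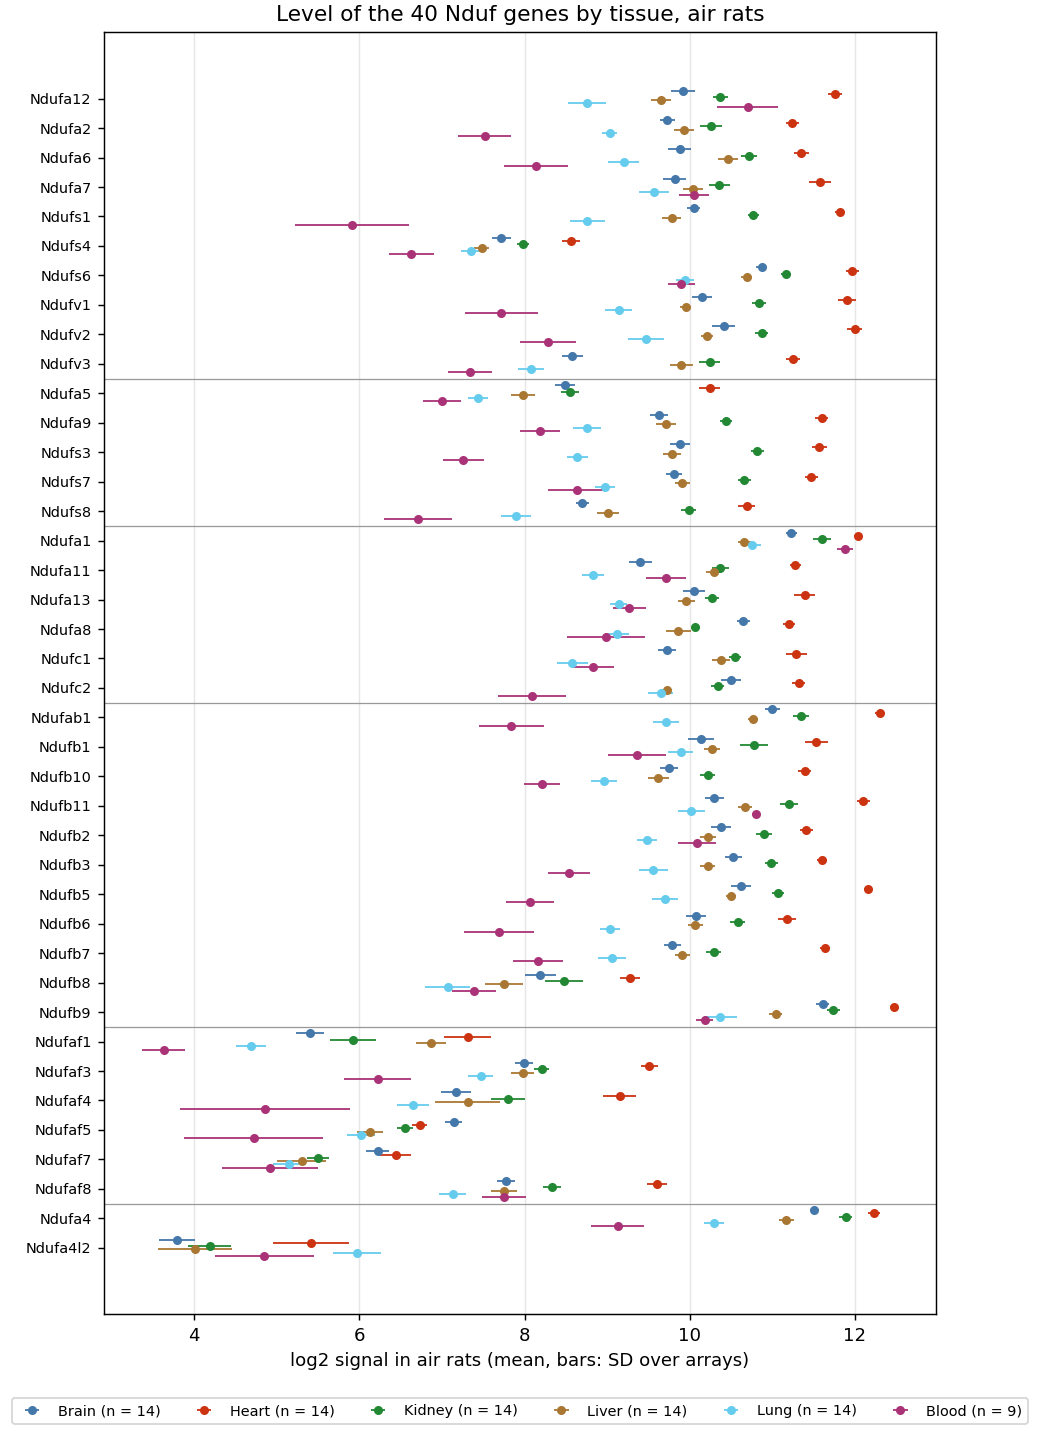
Mean log2 signal of each of the 40 Nduf genes in air rats (horizontal axis; bars are the SD over arrays), with 1 colour per tissue and lines between modules of the complex. Heart lies farthest right in 38 of the 40 rows, the others being Ndufaf5 and Ndufa4l2. Tissues are to be compared within a row, since probe sets differ in brightness.

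Other mitochondrial genes were distributed in a like way. Of 43 subunits of complexes II to V, 34 (79.1%) were higher in heart than in each of the other 4 solid tissues, and of 73 mitochondrial ribosomal proteins 60 (82.2%). Among 12 complex I assembly factors with other names the count was 9 (75%), and among 12 regulators of mitochondrial biogenesis 5 (41.7%). No test was made of a difference between these lists and the Nduf genes. In bulk tissue fewer cells of a type and less RNA per cell cannot be told apart, and neither can more mitochondria per cell.

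The promoters, 250 bases before to 50 after the start of a gene in RefSeq (build GRCr8), were found for 38 of the 40 members. The factors NRF1, GABP and YY1 are known to bind promoters of respiratory chain genes, and short forms of their motifs were searched on both strands. The NRF1 motif, of 10 letters with 1 open position, was in 7 of 38 member promoters (18.4%) and in 4.25% of all 33469 promoters, and GABP's CCGGAAG in 9 (23.7%) against 8.75%. YY1's AAGATGGC was in 9 (23.7%) against 3.17%, and TCAAGGTCA, of the estrogen-related receptors, in 0 against 0.433%. The GABP and YY1 letters share AAG and can overlap, which they did in 0 member promoters and in 1 of all promoters. A match is a description of these letters, not a site or a cause. The following are the promoters of the called genes Ndufaf4 (chr5:43401545-43401844, plus strand) and Ndufs7 (chr7:10110449-10110748, minus strand), shown because they are the members whose response to phosphine differed most between tissues. Capitals mark the NRF1 match, which begins at position -158 from the start of Ndufaf4, and the YY1 match, which begins at base 5 of the Ndufs7 transcript. The NRF1 match is 1 stretch that reads the same on both strands.
Ndufaf4: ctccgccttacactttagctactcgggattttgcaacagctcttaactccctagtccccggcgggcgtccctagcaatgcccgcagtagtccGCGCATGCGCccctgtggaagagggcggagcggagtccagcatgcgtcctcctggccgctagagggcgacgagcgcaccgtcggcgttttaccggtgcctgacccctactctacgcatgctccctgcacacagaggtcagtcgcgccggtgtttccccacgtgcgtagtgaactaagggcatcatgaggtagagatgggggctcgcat
Ndufs7: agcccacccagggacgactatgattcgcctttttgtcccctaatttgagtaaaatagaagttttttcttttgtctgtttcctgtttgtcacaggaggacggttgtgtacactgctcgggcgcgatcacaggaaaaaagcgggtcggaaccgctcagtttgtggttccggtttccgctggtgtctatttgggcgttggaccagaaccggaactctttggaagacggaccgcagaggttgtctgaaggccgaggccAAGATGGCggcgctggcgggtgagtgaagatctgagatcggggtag

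The main comparison asked whether inhaled phosphine changed these transcripts. Of 800 pairs of a gene and a comparison in the 5 solid tissues limma called 4, and 39 had an unadjusted p under 0.05. Of the 640 pairs of a complex I subunit it called 3, all higher and all in lung at 3 h, and the other called pair was the assembly factor Ndufaf4 in liver at 3 h. Brain, heart and kidney had 0 called members at any time, with 0, 10 and 7 of 160 pairs at an unadjusted p under 0.05. In blood 3 of 120 pairs were called, all lower and all at 3 h.

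Responses over all genes were themselves uneven in size. At 1, 3, 6 and 24 h limma called 0.149%, 0.506%, 0% and 0% of all genes in brain, and 1.33%, 3.33%, 0.35% and 0.0819% in heart. The shares were 3.12%, 6.39%, 0.35% and 0% in kidney, 0.335%, 3.85%, 0.223% and 0% in liver, and 5.8%, 11.6%, 0.0967% and 0.00744% in lung. In blood they were 0.00744%, 6.6% and 0.0521% at 1, 3 and 6 h. The median of the 40 members lay between -0.03 and 0.04 in brain, where their smallest padj at any time was 0.542. In kidney the smallest was 0.0557, for Ndufv3 at 3 h (-0.27 ± 0.08).

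By the brightest probe sets, the size of change that these data leave room for was small in solid tissues. Over the 32 subunits and 4 times the differences ran from -0.19 to 0.23 in brain, -0.29 to 0.07 in heart, -0.27 to 0.17 in kidney, -0.24 to 0.32 in liver and -0.24 to 0.41 in lung. The outermost bounds of their 95% intervals were -0.42 and 0.47 in brain, -0.53 and 0.36 in heart, -0.44 and 0.49 in kidney, -0.42 and 0.68 in liver, and -0.43 and 0.76 in lung. These bounds hold for the brightest probe set of each gene. The other, dimmer probe set of Ndufa7 differed by 0.63 ± 0.28 in liver at 6 h, against 0.18 ± 0.11 for the brightest, and its interval is wider. In heart the dimmer set differed by 0.48 ± 0.16 at 1 h and 0.42 ± 0.16 at 24 h, above the heart bound of 0.36. The brightest gave -0.09 ± 0.11 and -0.1 ± 0.11 there. At 3 and 6 h the dimmer set gave -0.02 ± 0.16 and 0.22 ± 0.2 in heart. Dimmer sets of other subunits also lay outside the ranges of differences above. That of Ndufv3 in heart gave -0.37 ± 0.23 at 1 h and 0.4 ± 0.23 at 24 h, against -0.12 ± 0.11 and -0.26 ± 0.11 for the brightest. That of Ndufa9 in liver at 6 h gave -0.42 ± 0.25, against 0.07 ± 0.1.

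**Figure D2:**
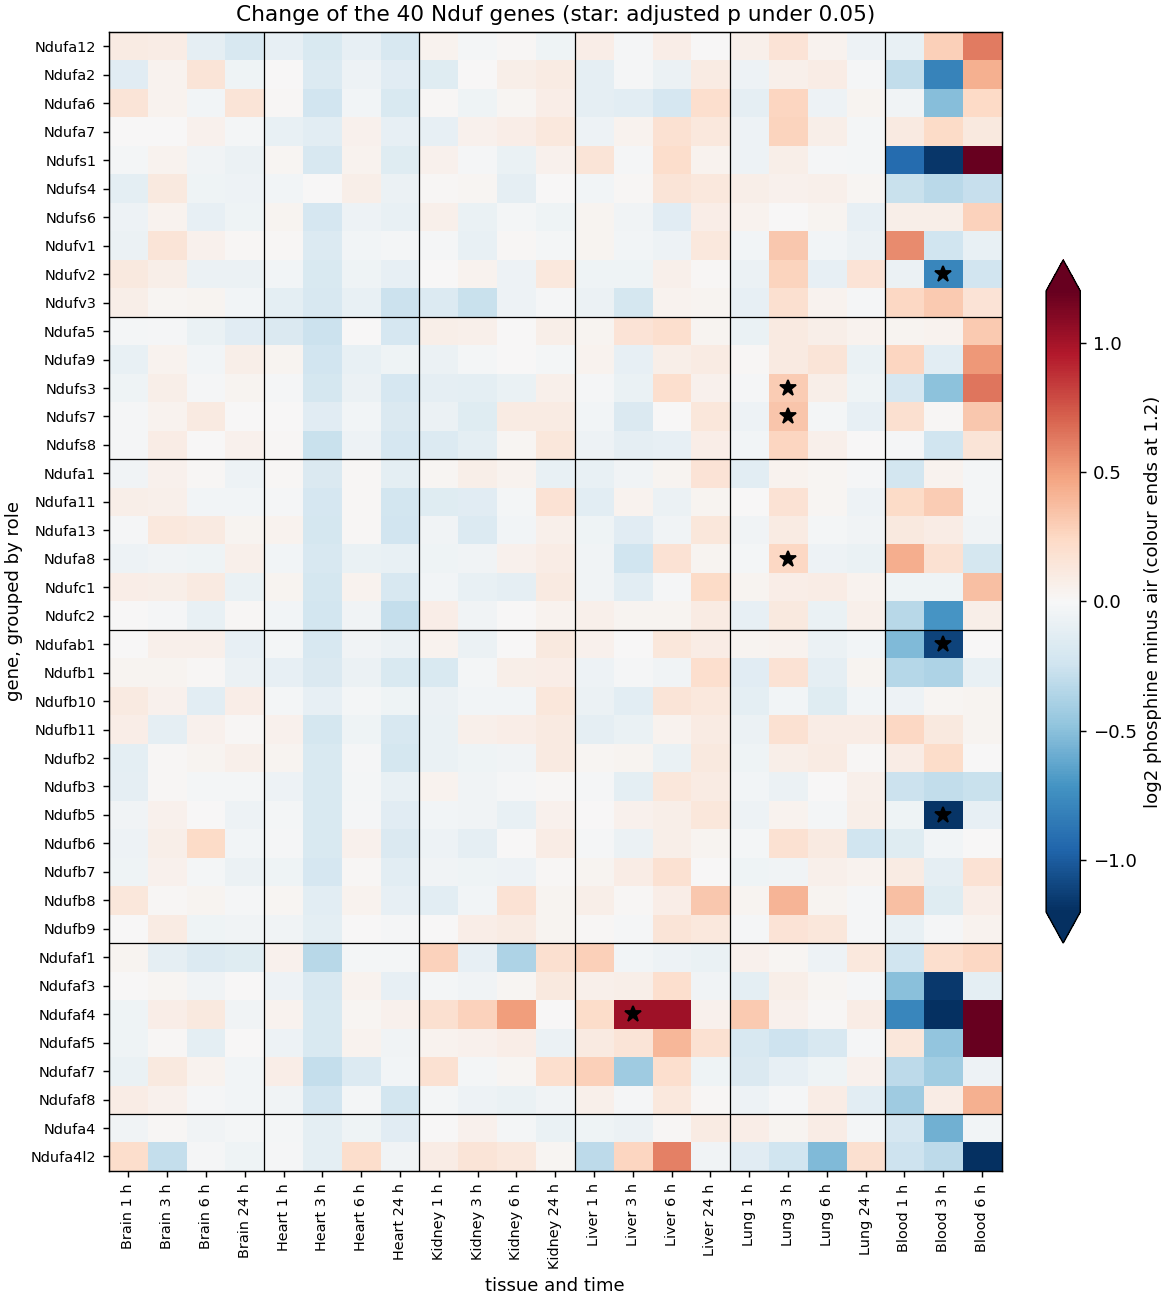
Log2 difference of phosphine minus air (colour) for each Nduf gene (rows, grouped by module and role) at each tissue and time (columns), with stars at an adjusted p under 0.05. Of 920 cells 7 carry a star, in liver, lung and blood at 3 h.

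Ndufaf4, an assembly factor that in human cells binds the Q module while it is built, rose in liver at 3 h. The 4 exposed livers had 8.39, 8.36, 8.12 and 8.04 and the 4 air livers 7.31, 7.28, 7.21 and 7.03. Every exposed rat lay above every air rat. The difference was 1.02 ± 0.25 (95% interval 0.51 to 1.53, 2.03-fold, limma padj = 0.0167), in a comparison that called 3.85% of all genes (1.99% higher) and in which the groups did not overlap for 11.5%. It remained between 0.92 and 1.07 and called in all 9 other settings, and lost the call without exposed Rat731 or without air Rat738 (padj up to 0.0597).

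At the other times Ndufaf4 was not called in liver. At 6 h the exposed livers had 9.1, 8.55, 8.49 and 7.84 against 7.49 and 7.48 in the air rats, which again did not overlap (1.02 ± 0.30, padj = 0.215, 4 and 2 rats). In that comparison the groups did not overlap for 17.5% of all genes (7.87% higher). At 1 h the difference was 0.22 ± 0.25 and at 24 h 0.05 ± 0.25, with the groups overlapping at both times. A test of the difference between the 4 times did not call this gene (padj = 0.359), so that no time course can be read from these values. With the air rats of all times pooled, limma called Ndufaf4 in liver at 6 h too (1.19, padj = 0.000291).

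In kidney Ndufaf4 was higher in the exposed rats at 3 h by 0.28 ± 0.15 and at 6 h by 0.50 ± 0.18, neither called (padj = 0.292 and 0.271). At 6 h the exposed kidneys had 8.71, 8.7, 8.63 and 8.37 and the air kidneys 8.19 and 8.01, without overlap, as for 24.4% of all genes there (13% higher). It was called at 6 h with array weights (0.50, padj = 0.0396) and with the air rats pooled (0.80, padj = 0.000117). Heart, brain and lung gave differences from -0.18 to 0.31 for this gene, and blood at 3 h gave -1.47 ± 0.49 (padj = 0.068).

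In the livers at 3 h the hepatocyte marker list had a mean of 12.74 to 12.91 in exposed and 12.69 to 12.78 in air rats, with 0 of 10 markers called. The log2 difference between the 3' and 5' ends of control transcripts, higher in less intact RNA, was 0.647 (0.391 to 0.935) in exposed and 0.479 (0.279 to 0.591) in air livers. The part of RNA quality in the Ndufaf4 difference was not tested.

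Regulators of mitochondrial biogenesis moved in the same livers. Ppargc1a, the coactivator that drives respiratory gene programmes and gluconeogenesis, had 7.99, 7.51, 7.03 and 6.96 in exposed and 4.38, 3.96, 3.16 and 3.15 in air livers at 3 h. The groups did not overlap (3.71 ± 0.42, padj = 1.06e-05), and since the air livers lay below the median of all probe sets, 4.41, no fold is given. It was higher by 2.56 ± 0.42 at 1 h (2.26 ± 0.4, padj = 0.0273, without the liver array that carried skeletal muscle genes), and its relatives Ppargc1b (1.77 ± 0.26) and Pprc1 (1.45 ± 0.38, 2.74-fold) were higher at 3 h. These were 3 of 12 regulators called at 3 h in liver, none lower, where 3.85% of all genes were called. In the same comparison 14 Nduf genes were higher and 26 lower, with a median of -0.02 against -0.01 for all genes. The smallest padj of a subunit was 0.141, for Ndufa8 (-0.24 ± 0.09).

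Of 12 measured assembly factors with other names, Foxred1 was higher in liver at 3 h (0.40 ± 0.10, padj = 0.0223) and at 6 h (0.59 ± 0.12, padj = 0.0353, or 0.0517 without the liver arrays that carried genes of another organ). Dmac1, a factor of the distal membrane arm, was lower in liver at 3 h (-0.40 ± 0.07, padj = 0.00158), and Timmdc1, a factor of the membrane arm, was lower in kidney at 3 h (-0.38 ± 0.07, padj = 0.00195). Aifm1 and Tmem126b were lower in blood at 3 h, by log2 differences of -1.48 ± 0.40 (padj = 0.0286) and -1.2 ± 0.37 (padj = 0.0497). No called assembly factor in the solid tissues changed as much as 2-fold except Ndufaf4. Without the arrays that carried genes of another organ, 1 further factor, not named here, was called higher in lung at 3 h.

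In lung at 3 h 3 subunits rose, where 11.6% of all genes were called and 5.84% were higher. Ndufs7, the Q module subunit that carries the last iron-sulfur cluster before ubiquinone, had 9.38, 9.30, 9.24 and 9.06 in exposed and 9.09, 8.92, 8.92 and 8.73 in air lungs. Its groups overlapped, through the lowest exposed lung and air Rat733, and the difference was 0.33 ± 0.09 (1.26-fold, padj = 0.0214). Ndufs3, of the same module, had 9.07, 9.02, 8.83 and 8.77 against 8.73, 8.68, 8.59 and 8.48. Its groups did not overlap, with a difference of 0.30 ± 0.10 (1.23-fold, padj = 0.0433).

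Ndufa8, of the proximal membrane arm, had 9.42, 9.22, 9.18 and 9.13 in exposed and 9.04, 9.02, 8.95 and 8.92 in air lungs at 3 h. The groups did not overlap, with a difference of 0.25 ± 0.08 (1.19-fold, padj = 0.0423). Of the 40 members 32 were higher, 10 at an unadjusted p under 0.05, with a median of 0.09 against 0.01 for all genes, of which 25.3% had such a p. The groups did not overlap for 3 members, all higher, against 18.3% of all genes (9.08% higher). By module the median was 0.26 for Q (5 of 5 higher), 0.18 for N (9 of 10), 0.11 for the proximal arm (6 of 6), 0.07 for the distal arm (8 of 11) and 0.00 for the assembly factors. Ndufv1, the subunit that binds NADH (0.32 ± 0.11, padj = 0.0629), and Ndufb8, of the distal arm (0.41 ± 0.17, padj = 0.118), were higher without passing the threshold.

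The lung calls depended on few rats. Limma called 0 members without exposed Rat728, without exposed Rat729 or without air Rat732, 1 without air Rat738 or without air Rat739, and 8 with array weights, but 0 when only these 2 groups entered the fit. The shares of all genes called in these fits are not given here. Without the arrays that carried genes of another organ, Ndufs7 (0.37, padj = 0.00966) and Ndufs3 (0.31, padj = 0.0492) were called and Ndufa8 was not. Markers of several cell types differed in these lungs, in mixed directions. Alveolar markers had means of 12.26 to 12.36 in exposed and 11.97 to 12.31 in air lungs, with 6 of 8 higher and 2 called. Leukocyte markers had 9.01 to 9.47 and 8.74 to 9.11, with 3 of 7 higher, 2 of them called, 4 lower and a median of -0.07. Among cells outside the alveoli, adipocyte markers had 3.8 to 6.43 and 3.6 to 5.79 (5 of 5 higher, median 1.19, 0 called, 3 at an unadjusted p under 0.05). Cardiomyocyte markers, of the cells of the tissue with the most Nduf signal, had 5.67 to 7.81 and 5.72 to 7.77 (6 of 8 higher, median 0.54, 0 called, 1 at an unadjusted p under 0.05). Skeletal muscle markers (3 of 4 lower, median -0.61) and hepatocyte markers (10 of 10 lower, median -0.74) went the other way, with 0 called in each. Erythroid markers were higher (3 of 3, median 0.47, 0 called). Their part in the subunit differences was not tested.

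Other respiratory genes were called in the same lungs, 7 of 43 subunits of complexes II to V, all higher, where 11.6% of all genes were called and 5.84% were higher. Cyc1, cytochrome c1 of complex III, was higher by 0.54 ± 0.14 (1.45-fold, padj = 0.00985), and Uqcrfs1, the iron-sulfur protein of that complex, by 0.44 ± 0.11 (1.36-fold, padj = 0.00882). Atp5f1b of ATP synthase was higher by 0.35 ± 0.08 (padj = 0.00261), and Uqcrc1 by 0.39 ± 0.12. Of 8 mitochondrial content markers, the chaperone Hspa9 (0.46 ± 0.08, padj = 0.000548) and citrate synthase, Cs (0.40 ± 0.12, padj = 0.0364), were higher. The median of complexes II to V was 0.08 and that of 73 mitochondrial ribosomal proteins 0.08, with 4 called higher and 1 lower. Without the arrays that carried genes of another organ Cyc1 (0.58, padj = 0.0133), Uqcrfs1 (0.49, padj = 0.00919), Atp5f1b (0.37, padj = 0.00839) and Uqcrc1 (0.51, padj = 0.0119) were called, while Cs was not (0.4, padj = 0.0737). The calls of Atp5pb (padj = 0.0676), Cox6a1 (padj = 0.0787) and Cox8a (padj = 0.115) were lost too, and of the ribosomal proteins 2 were then called higher and 1 lower.

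**Figure D3:**
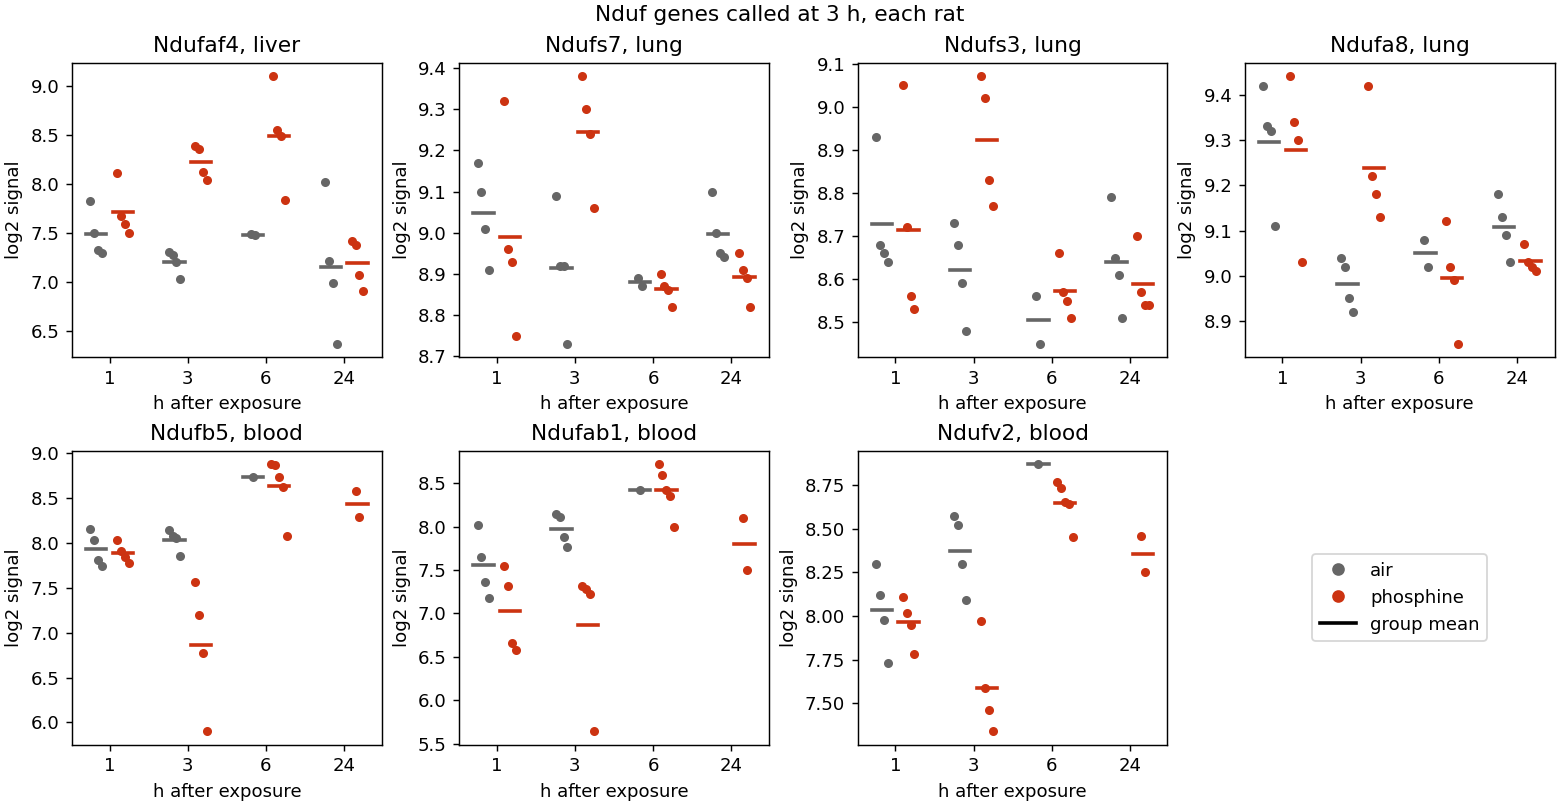
Log2 signal of the 7 Nduf genes called at 3 h, in the tissue of the call, with a point for each rat and a line for each group mean at 1, 3, 6 and 24 h. In liver the 4 exposed values of Ndufaf4 at 3 h sit between 8.04 and 8.39, above the air values of 7.03 to 7.31.

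In heart no member was called, although nearly all had lower means after phosphine at 3 and 24 h. At 3 h 40 of 40 were lower, 6 at an unadjusted p under 0.05 (smallest padj = 0.179), with a median of -0.19 against -0.02 for all genes, 3.33% of which were called. The mean of the 40 genes was 10.57 ± 0.27 (SD, n = 4) in exposed hearts, from 10.18 in Rat729 to 10.75, and 10.76 ± 0.06 in air hearts, from 10.69 to 10.83. The 3' minus 5' difference of control transcripts was 0.63 (0.478 to 0.736) in exposed and 0.445 (0.353 to 0.559) in air hearts, and its part in the lower means was not tested. The low value was that of the array with hepatocyte genes, and the other 3 exposed hearts overlapped the air hearts. Without Rat729 the median was -0.05 with 35 lower, and it was -0.05 without all arrays of that kind.

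Ndufs8 shows the pattern for 1 gene, with 10.59, 10.54, 10.51 and 10.03 in exposed and 10.83, 10.73, 10.68 and 10.5 in air hearts at 3 h. Rat729 was the lowest, and the groups overlapped (-0.27 ± 0.11, padj = 0.179). The hepatocyte list had means of 3.48 to 12.34 in the exposed hearts and 3.53 to 4.09 in air hearts, and the cardiomyocyte list 11.30 to 12.60 and 12.54 to 12.60. Of the members 0 had groups that did not overlap, against 8.45% of all genes.

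At 24 h 39 of 40 were lower in exposed hearts, with a median of -0.13 against -0.01 for all genes. The smallest padj was 0.477, 4 genes had an unadjusted p under 0.05, and 0.0819% of all genes were called. The groups did not overlap for 11 members, all lower, against 4.41% of all genes. The mean of the 40 was 10.66 ± 0.13 in exposed hearts (10.48 in Rat741 to 10.77) and 10.79 ± 0.02 in air hearts (10.76 to 10.81). Here too the lowest arrays were those of Rat741 and Rat749, with hepatocyte and alveolar genes. Without Rat741 the median was -0.08 with 32 lower, and without the arrays that carried genes of another organ it was -0.05 with 25 lower.

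**Figure D4:**
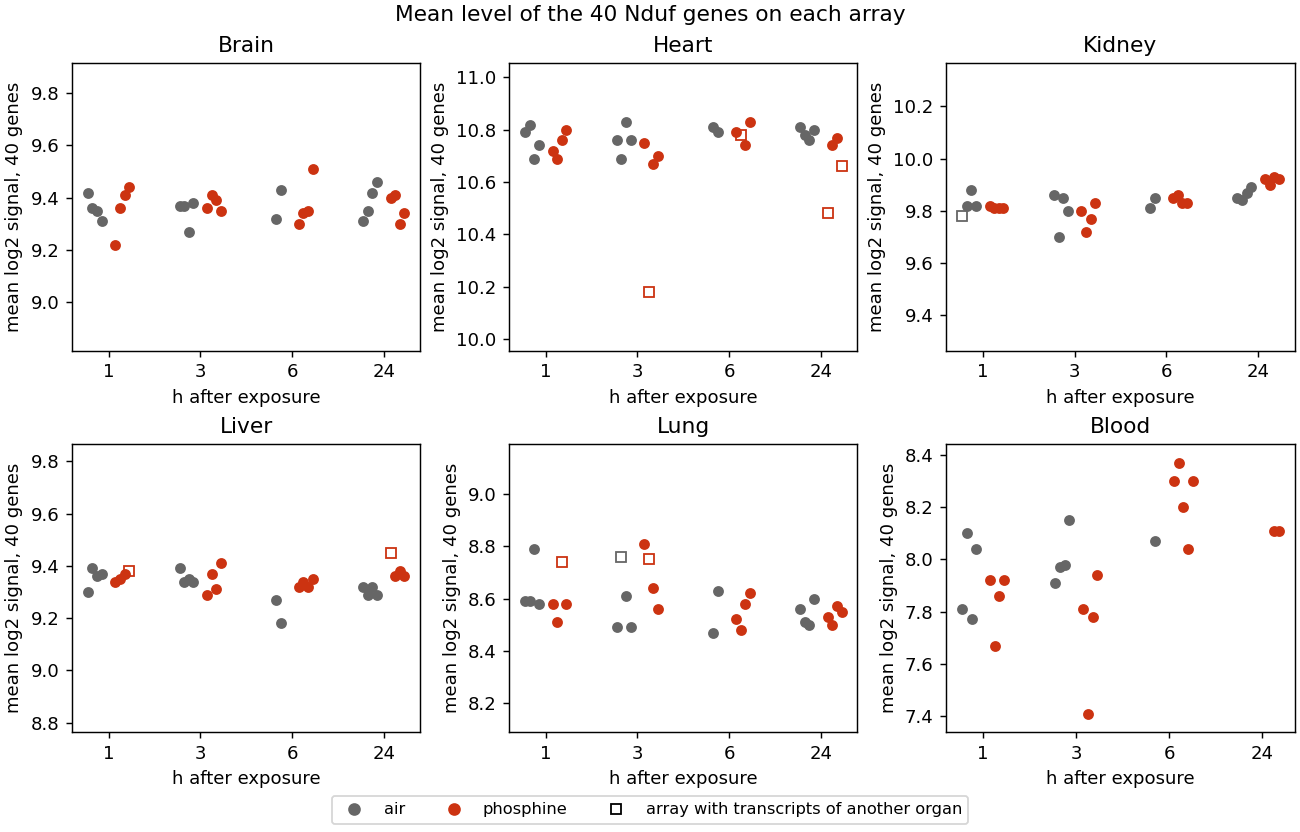
Mean log2 signal of the 40 Nduf genes on each array (vertical axis, 1 panel per tissue) at 1, 3, 6 and 24 h, air in grey and phosphine in red. Open squares are arrays with transcripts of another organ, and the lowest points of heart at 3 h (10.18) and 24 h (10.48) are such arrays.

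The other genes of the respiratory chain gave like values in heart. Of 43 subunits of complexes II to V, 42 were lower at 3 h (median -0.15) and 40 at 24 h (median -0.11), and of 73 mitochondrial ribosomal proteins 63 were lower at 3 h (median -0.12), with limma calling 0 of either list at 3 h (12 and 4 at an unadjusted p under 0.05). The regulator Perm1, a muscle partner of the estrogen-related receptors, had 10.3, 10.04, 10.04 and 8.94 in exposed and 10.64, 10.5, 10.48 and 10.32 in air hearts at 3 h. Its groups did not overlap, with 1 exposed heart far below the rest (-0.65 ± 0.18, padj = 0.0441). Without the arrays that carried genes of another organ Perm1 was not called (-0.36 ± 0.1, padj = 0.072), and the medians at 3 h were -0.04 for complexes II to V and -0.01 for the ribosomal proteins. That fit also gained calls among the regulators in heart, 1 higher at 3 h and 1 lower at 6 h, in genes not named here. Ppargc1b was higher in heart at 1 h (0.87 ± 0.15, 1.83-fold, padj = 0.00155).

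In liver at 24 h 35 of 40 members were higher in exposed rats, with a median of 0.10 against -0.02 for all genes. Limma called 0 of them and 0% of all genes, 5 members had an unadjusted p under 0.05, and the groups did not overlap for 9 members, all higher, against 1.12% of all genes. The mean of the 40 was 9.39 ± 0.05 in exposed livers (9.36 to 9.45) and 9.30 ± 0.02 in air livers (9.29 to 9.32). The groups were apart, and the highest value was that of Rat741, whose array carried kidney genes. Without Rat741 the median was 0.06 with 11 lower.

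At 6 h in liver 28 members were higher (median 0.07 against -0.01), and the groups did not overlap for 11, against 7.87% of all genes that did not and were higher. With the air rats of all times pooled this median became -0.03, and without air Rat763 it was 0.02. In kidney at 24 h 30 were higher, with a median of 0.06 against 0.00 and means of 9.92 ± 0.01 (9.90 to 9.93) in exposed and 9.86 ± 0.02 (9.84 to 9.89) in air kidneys. The groups did not overlap for 4 members, against 1.95% of all genes in that direction. Limma called 0 members there, with 2 at an unadjusted p under 0.05.

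**Figure D5:**
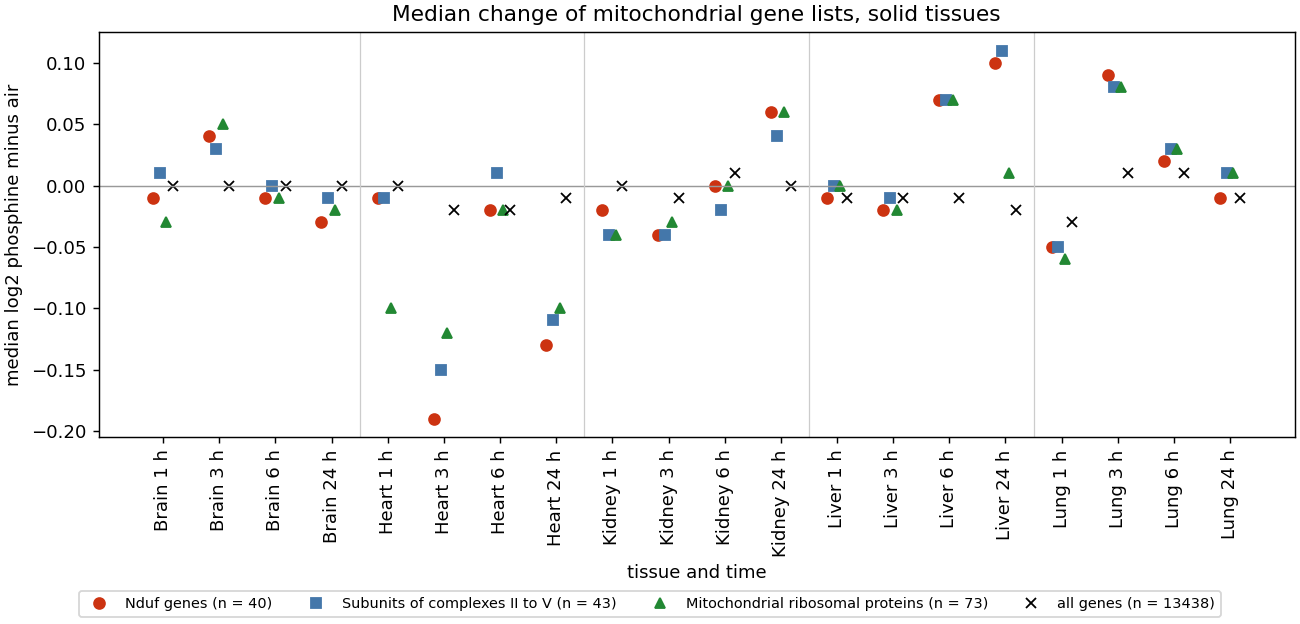
Median log2 difference of phosphine minus air over the genes of 4 lists (vertical axis) in the 20 comparisons of solid tissues (horizontal axis). The Nduf genes, the subunits of complexes II to V and the mitochondrial ribosomal proteins lie below 0 together in heart at 3 h (-0.19, -0.15 and -0.12), where 1 array carried hepatocyte genes.

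The panel of subunits often used as markers of the complex stayed within narrow limits over the 20 comparisons of solid tissues. Ndufs1 ran from -0.19 ± 0.09 in heart at 3 h to 0.21 ± 0.12 in liver at 6 h, and Ndufv1 from -0.16 ± 0.10 in heart at 3 h to 0.32 ± 0.11 in lung at 3 h. Ndufs4 ran from -0.12 ± 0.07 to 0.15 ± 0.13, Ndufa9 from -0.23 ± 0.11 to 0.15 ± 0.14 and Ndufb8 from -0.13 ± 0.11 to 0.41 ± 0.17. None of them was called in any of these comparisons. For Ndufa9 and Ndufa7 the other probe set had the opposite sign in 13 and 14 of 23 comparisons.

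The remaining panel genes were an assembly factor and the members outside the complex, also never called. Ndufaf1 ran from -0.37 ± 0.19 in kidney at 6 h to 0.29 ± 0.17 in liver at 1 h. Ndufa4 stayed between -0.14 ± 0.09 and 0.10 ± 0.07. Ndufa4l2 ran from -0.53 ± 0.26 in lung at 6 h (padj = 0.587) to 0.60 ± 0.32 in liver at 6 h (padj = 0.593), a wider range than those of Ndufaf1 and Ndufa4. In air rats its means lay below the median of all probe sets in kidney, liver and brain.

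Whether the response differed between the 5 solid tissues was tested with limma's moderated F at each time. At 3 h 8 of 40 members differed, where 14.4% of all genes did, and 14 had an unadjusted p under 0.05. At 1, 6 and 24 h 0 differed (0, 2 and 7 at an unadjusted p under 0.05), where 3.27%, 1.35% and 0.625% of all genes did. With the rat as a block the count at 3 h was again 8. Ndufaf4 had the smallest p (padj = 0.00048), with 1.02 in liver, 0.28 in kidney, 0.08 in brain, 0.05 in lung and -0.18 in heart. The largest of these values was that of liver, but pairs of tissues were not compared by a test.

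Ndufs7 (padj = 0.00062) was at 0.33 in lung, 0.04 in brain, -0.14 in heart, -0.15 in kidney and -0.17 in liver. Ndufa8 (padj = 0.00171) was at 0.25 in lung, -0.04 in brain and kidney, -0.19 in heart and -0.24 in liver. Lung had the highest value in both, again without a test between pairs of tissues. The other members that differed were Ndufs8 (padj = 0.00673), Ndufv1 (padj = 0.00708), Ndufs3 (padj = 0.0147), Ndufa6 (padj = 0.0223) and Ndufv2 (padj = 0.0365), each highest in lung and lowest in heart. The count was 5 without the arrays that carried genes of another organ, where Ndufs8, Ndufa6 and Ndufv2 lost the call, and 3 without Rat729, in which Ndufaf4, Ndufs7 and Ndufa8 remained. It was 5 without air Rat732 or without air Rat739, 14 without exposed Rat731 and 13 with array weights, with the shares of all genes not given here.

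A difference between the 4 times was called for 0 of 200 pairs of a member and a solid tissue, with 11 at an unadjusted p under 0.05. Of all genes 0.0893% differed between times in brain, 0.424% in heart, 1.75% in kidney, 0.476% in liver and 6.38% in lung. The smallest padj were 0.108 for Ndufs7 and 0.137 for Ndufb6, both in lung, and 0.177 for Ndufs8 in kidney. With array weights 5 pairs were called, and 1 without exposed Rat716, which was also the count without the arrays that carried genes of another organ. For these fits the shares of all genes are not given here.

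In blood at 3 h 3 members fell, where 6.6% of all genes were called and 5.8% were lower. Ndufb5, of the distal membrane arm, had 7.57, 7.2, 6.77 and 5.9 in exposed and 8.15, 8.08, 8.06 and 7.86 in air blood, a difference of -1.18 ± 0.28 (2.26-fold, padj = 0.0187). Ndufab1, the mitochondrial acyl carrier protein, had 7.31, 7.28, 7.22 and 5.64 against 8.15, 8.11, 7.88 and 7.76 (-1.11 ± 0.33, 2.16-fold, padj = 0.0458). Neither gene overlapped between the groups, and Rat729 was the lowest exposed rat in both. Ndufv2, an iron-sulfur subunit of the N module, had 7.97, 7.59, 7.46 and 7.34 against 8.57, 8.52, 8.3 and 8.09, also without overlap (-0.78 ± 0.21, 1.72-fold, padj = 0.0312).

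The members as a group did not move 1 way in blood at 3 h. Of the 40, 25 were lower, with a median of -0.14 against -0.07 for all genes, and this turned to 0.17 with 15 lower under quantile normalization within blood. The groups did not overlap for 7 members, 6 of them lower, against 14.8% of all genes (11.7% lower). The 75th percentile of all genes was 6.12 to 6.36 on the exposed arrays and 6.68 to 6.86 on the air arrays, and with it as a covariate 0 members were called and the median was 0.09. Since these percentiles did not overlap between the arms, that fit cannot separate them from exposure. Leukocyte markers had means of 9.73 to 10.22 in exposed and 10.32 to 10.67 in air blood, with 3 of 7 called lower and 0 higher, and erythroid markers 12.15 to 12.42 and 11.99 to 12.31. Their part in the falls was not tested.

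The blood calls moved with single rats and settings. The count was 0 without exposed Rat729 or air Rat739, 1 without air Rat732, Rat733 or Rat738, and 0 under quantile normalization. Of 73 mitochondrial ribosomal proteins 9 were called in the same samples, all lower, where 6.6% of all genes were called and 5.8% were lower. The median of that list was -0.52, and the called genes included Mrps17 (-1.97 ± 0.46, 3.93-fold) and Mrpl15 (-1.56 ± 0.42, 2.95-fold). Of the regulators Tfam, the mitochondrial DNA packaging factor (-1.93 ± 0.44, 3.82-fold, padj = 0.0159), and Yy1 (-1.61 ± 0.41, 3.05-fold, padj = 0.0228) were lower. At 6 h, with 1 air sample, and at 1 h 0 members were called in blood, with 2 and 1 at an unadjusted p under 0.05.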

How the data were processed

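RNA was extracted with an RNeasy kit and labelled with a 3' IVT Plus kit for Affymetrix rat arrays, per the labels. The values are log2 signals that the authors deposited, made with RMA and Partek per the submitters' processing notes. Neither their versions nor the set of arrays that went into 1 normalization is given in the sources used here. Of 31139 probe sets 19063 listed 1 gene, and the brightest per gene gave 13438 genes. Group means were fitted per tissue with limma 3.58.1 in R 4.3.3 (with the package data.table, version 1.17.8, and Python 3.11.15), phosphine was compared with air at each time, and p-values were Benjamini-Hochberg adjusted over all genes at 0.05. Differences of the effect between times or tissues used the moderated F test, and tissues were compared in air rats. The number of arrays limits the precision. The steps were tested on simulated data.

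Named genes were every called member, a panel of subunits and assembly factors, up to 4 called genes per other list, the largest tissue differences and the members with the smallest p in tests of a difference. Members and lists were chosen with earlier results of these data known. Alternatives were quantile normalization, median centring, leaving out genes below the 40th percentile, the mean of a gene's probe sets, a trended robust prior, array weights, leaving out arrays with genes of another organ, fitting only the groups compared, pooling air rats, the rat as a block, and leaving out each rat. A 75th percentile covariate in blood, and other lists without those arrays, were chosen after seeing the data. Deviations of tissues from the same rat correlated between -0.335 and 0.384 (median 0.0815, 300 pairs). The pairing comes from rat numbers in the labels.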

Additional observations from a re-analysis of the deposited data

Results flagged for a closer look

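An outlier rule marked a sample in 10 of 126 sets of values examined, 7.94%. The rule marks about 1 in 20 by chance in independent sets. These sets share arrays, and their single genes were picked by calls in these data, so the share cannot be set against that rate. The rule weighs a gap against the range of its group, so that small gaps can be marked too. In the mean of the 40 genes the marked samples were exposed Rat710 in kidney at 1 h (9.82, the highest, next 9.81), air Rat726 in lung at 1 h (8.79, the highest, next 8.59), exposed Rat729 in heart at 3 h (10.18, the lowest, next 10.67) and air Rat738 in brain at 3 h (9.27, the lowest, next 9.37). Rat729 was also lowest at 3 h for Ndufab1 in blood (5.64, next 7.22) and for Ndufv1 in kidney (10.74, next 10.77). In heart it was lowest for Ndufa8 (10.58, next 11.11), Ndufs8 (10.03, next 10.51) and Ndufv1 (11.39, next 11.9). Rat738 was lowest for Ndufaf4 in air brain at 3 h (6.73, next 7.29).

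The effect of phosphine at 3 h differed between the 5 solid tissues for 8 of 40 members by limma's moderated F, where 14.4% of all genes differed. The count was 5 without the arrays that carried genes of another organ and 3 without Rat729. The adjusted p was 0.00048 for Ndufaf4, 0.00062 for Ndufs7, 0.00171 for Ndufa8, 0.00673 for Ndufs8, 0.00708 for Ndufv1, 0.0147 for Ndufs3, 0.0223 for Ndufa6 and 0.0365 for Ndufv2.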

How the results depend on the processing

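With array weights the count of called members was 1 in heart, 1 in kidney, 2 in liver and 8 in lung, against 0, 0, 1 and 3. With air rats pooled over times it was 4 in heart, 8 in kidney, 4 in liver, 4 in lung and 1 in blood. In kidney it was 1 after leaving out dim genes and 1 with the trended robust prior, and in lung 0 with only the groups compared. In blood the count of 3 became 0 under quantile normalization, 1 under median centring, 1 with only the groups compared and 0 with the 75th percentile covariate. Effects that differed between times, 0, became 5 with array weights and 1 without the arrays that carried genes of another organ, and those that differed between tissues, 8, became 13 and 5. Leaving out each rat in turn gave 0 to 0 in brain, 0 to 1 in heart (1 without Rat728), 0 to 1 in kidney (1 without Rat733, Rat742 or Rat744), 0 to 1 in liver, 0 to 4 in lung, 0 to 4 in blood, 0 to 1 between times, 3 to 14 between tissues and 38 to 38 for genes highest in heart, which were 36 with the mean of a gene's probe sets. With the rat as a replicate block the pairing of tissues gave 8 and 38, and changed no other call. No paired analysis was possible because no rat was both exposed and in air, for phosphine against air. No direction of a called value reversed. Blood without the 1 air rat at 6 h, and blood at 6 h with only its groups, gave no value. The shares of all genes called under these settings are not given here, so the counts of members cannot be set against them. The cause of these moves was not tested. Precision was limited by 4 rats a group, 2 air rats at 6 h, and blood's single air rat there.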
